A study of Mus musculus with 30 samples.

Results

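The Hox genes encode homeodomain transcription factors, and 39 of the 55426 genes in the deposited table belong to this family. Within the table they were picked by symbol alone, as Hox followed by a cluster letter from a to d and a paralogue number. The family itself was chosen with earlier results of these data known. The HoxA cluster gave 11 genes, HoxB 10, HoxC 9 and HoxD 9. RNA sequencing covered 30 mouse samples, 15 of Achilles tendon and 15 of the heel bone, the calcaneus, with 3 in each of 10 groups. In each tissue the groups were naive at day 0, stimulated at day 5, unstimulated at day 5, stimulated at day 12 and unstimulated at day 12. Stimulated limbs had their muscle driven to contract by light, and the study asked how that loading changes expression in tendon and bone. The genotype was labelled Acta1,Ai32 in every group, the naive and unstimulated ones included. Acta1 encodes skeletal muscle actin, and Ai32 is a channelrhodopsin allele that Cre recombinase switches on. The labels name no Cre driver, age or sex, and titles of the stimulated samples also carry the word control.

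Hox genes lie in clusters in the order in which they act along the body, from low paralogue numbers at the head end to high numbers at the tail end. In limbs the genes with high numbers also mark position along the limb. In mouse, the Hox9 and Hox10 genes act in the upper limb segment, Hox11 genes in the middle segment and Hox13 genes in the hand and foot, and connective tissue cells keep part of this code in the adult. Hoxa9 and Hoxa10 are also active in blood progenitors.

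Tendon samples held 24.5M to 44.6M counts (median 30.3M) and bone samples 19.3M to 35.0M (median 23.4M). Unstimulated bone samples 1 and 2 of day 5 differed at p under 0.05 in 8% of genes, against 24.7% to 51% in the 29 other pairs of replicates, and were summed, which left 14 bone libraries. Both tissues were mixtures. Genes of muscle fibres (5 markers) made up 6.77% to 13.9% of tendon counts (median 10.9%) and 0.00756% to 1.56% of bone counts (median 0.679%). Tendon markers were present in tendon, with medians of 21.3 CPM for Scx and 48.0 CPM for Tnmd, but the 8 tendon fibroblast markers summed to 0.164% to 2.54% of tendon counts and 2.57% to 5.11% of bone counts. In bone the medians of Scx and Tnmd were 9.48 and 53.6 CPM. Of the 8 markers Col1a1 had the highest median, 4349 CPM in tendon and 26090 CPM in bone. Col1a1 is also on the osteoblast list, so the sums of these 2 lists are not separate measures. Osteocyte markers reached at most 0.000911% in tendon and at least 0.0215% in bone. Nothing in the labels ties the samples of a group to different animals. The p-values below therefore reflect the variation among the samples at hand, which may be technical. In such bulk samples fewer cells of a type and less RNA per cell cannot be told apart.

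In GRCm38 the HoxA genes lie on chromosome 6 and end at 52260880. The HoxB genes spanned chr11:96194316-96368256, the HoxC genes chr15:102921103-103036852 and the HoxD genes chr2:74668310-74765142. For 5 genes called between tendon and bone in opposite directions, picked after their values were seen from those with an entry in the RefSeq promoter table (GRCm38.p6), the 250 bases before the transcription start are shown 5′ to 3′, with each CG dinucleotide in capitals. Hoxa11, Hoxa13 and Hoxd13 were lower in tendon than in bone, and Hoxd8 and Hoxd9 were higher.
Hoxa11 (chr6:52245811-52246060, minus strand): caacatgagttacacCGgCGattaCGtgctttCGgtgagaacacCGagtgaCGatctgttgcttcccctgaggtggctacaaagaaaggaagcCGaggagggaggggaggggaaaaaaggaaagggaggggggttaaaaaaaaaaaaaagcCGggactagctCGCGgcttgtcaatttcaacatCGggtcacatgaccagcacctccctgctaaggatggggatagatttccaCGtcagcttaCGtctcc
Hoxa13 (chr6:52260881-52261130, minus strand): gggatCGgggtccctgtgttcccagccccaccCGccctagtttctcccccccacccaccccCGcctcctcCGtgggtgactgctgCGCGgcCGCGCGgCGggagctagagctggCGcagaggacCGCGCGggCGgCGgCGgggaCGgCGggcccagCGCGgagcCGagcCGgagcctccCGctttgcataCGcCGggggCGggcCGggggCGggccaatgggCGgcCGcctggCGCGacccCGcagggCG
Hoxd13 (chr2:74667975-74668224, plus strand): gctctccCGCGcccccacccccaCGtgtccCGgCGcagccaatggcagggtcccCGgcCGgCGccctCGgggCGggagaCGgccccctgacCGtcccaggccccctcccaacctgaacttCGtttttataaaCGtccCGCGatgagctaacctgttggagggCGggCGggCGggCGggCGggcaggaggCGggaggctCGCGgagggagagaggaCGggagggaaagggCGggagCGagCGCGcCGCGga
Hoxd8 (chr2:74704365-74704614, plus strand): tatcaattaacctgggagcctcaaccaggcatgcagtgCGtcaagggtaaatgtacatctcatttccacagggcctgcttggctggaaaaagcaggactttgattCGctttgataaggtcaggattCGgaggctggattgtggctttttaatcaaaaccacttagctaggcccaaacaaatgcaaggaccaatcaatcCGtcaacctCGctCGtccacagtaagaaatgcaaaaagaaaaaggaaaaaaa
Hoxd9 (chr2:74697513-74697762, plus strand): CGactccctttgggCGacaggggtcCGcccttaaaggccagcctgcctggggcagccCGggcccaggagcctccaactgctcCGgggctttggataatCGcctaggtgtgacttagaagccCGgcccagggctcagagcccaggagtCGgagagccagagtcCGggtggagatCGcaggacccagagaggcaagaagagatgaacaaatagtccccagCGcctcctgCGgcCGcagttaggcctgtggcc
The capitals show where these windows differ. Hoxa13 held 35 CG dinucleotides and Hoxd13 held 31, more than in 97% and 94.8% of the 32851 promoter windows of the table. Hoxa11 and Hoxd9 held 13 each and Hoxd8 held 6, the median of all windows. The 24 windows of the 22 Hox genes in the table had a median of 12.5 and ran from 2 to 35. The letters TGATTNAT, an element of HOX and PBX partners, were found on either strand in 2 of these 24 windows and in 2.82% of all. TGACAG, a MEIS element, was in 2 of 24 and in 15.9% of all, and TAATTA, a common homeodomain core, was in 2 of 24 and in 4.84% of all. These are matches of letters and not binding sites.

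Most Hox genes of the family were transcribed in both tissues, and the 2 tissues differed in which clusters led. Levels are CPM, the read count scaled to the library's TMM-adjusted total. The mean level reached 1 CPM for 24 of the 39 genes in tendon and 26 in bone. No read was counted for Hoxb1, Hoxb13 and Hoxd12 in any of 15 tendon libraries, which allows up to 0.00797 CPM over the group (3 counts), nor for Hoxb13 in bone, which allows up to 0.00634 CPM. Divided by exon length, the Hox genes of a tendon library summed to 95.1 CPM per kb (median, range 76.6 to 110), against 60.0 in bone (48.7 to 71.0). The higher sum in tendon was computed with TMM totals only. With plain library totals the median log2 difference of all genes, tendon over bone, moved from -0.15 to -0.86, and the sums were not computed with them.

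In tendon the HoxC cluster gave 46.8% of this sum (median, range 42.8% to 51.3%), against 20.8% in bone (17.3% to 27.5%). HoxD gave 22.8% in tendon and 11.6% in bone. HoxA gave 24.3% in tendon (20.4% to 30.1%) and 57.1% in bone (50.5% to 61.0%), and HoxB gave 4.54% in tendon and 10.5% in bone. The ranges of the 2 tissues did not overlap for any of these 4 shares. HoxC held the highest share in every tendon library and HoxA in every bone library. Genes of groups 9 to 13 together gave 66.7% in tendon and 66.2% in bone, with overlapping ranges. Group 13, by contrast, gave 1.34% in tendon (0.761% to 2.72%) and 7.02% in bone (5.51% to 9.14%), without overlap.

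In tendon Hoxc10 had the highest level, with a median of 29.8 CPM per kb (22.4 to 35.3), and its lowest tendon library was above the highest of every other Hox gene. Hoxd8 followed with 11.8 (8.12 to 17.8) and Hoxd9 with 7.57 (4.99 to 10.8), and these neighbours overlapped. Hoxc11 had 5.64, Hoxa10 5.33, Hoxa11 4.21, Hoxc9 4.14, Hoxa7 3.39 and Hoxa9 3.08 CPM per kb, with ranges that ran into each other. Hoxa4, Hoxc4, Hoxc6, Hoxa5, Hoxd10, Hoxd4, Hoxa13 and Hoxb7 had medians of 1.03 to 1.93 CPM per kb. Of the other tendon genes with a mean of at least 1 CPM, Hoxb6, Hoxc5, Hoxa3, Hoxb3, Hoxb4, Hoxb5 and Hoxc8 had medians of 0.439 to 0.829 CPM per kb.

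In bone Hoxa11 had the highest level, 11.2 CPM per kb (9.59 to 14.6), above the range of every other Hox gene there. Hoxa10 followed with 6.04 (4.54 to 8.09), Hoxc10 with 5.93 (3.60 to 8.95), Hoxa9 with 4.19 (3.49 to 4.74) and Hoxa13 with 3.90 (2.64 to 5.36), each overlapping the next. Hoxa7 had 3.34, Hoxd8 3.21, Hoxc11 3.09, Hoxd9 2.07 and Hoxa5 1.97 CPM per kb. Hoxc9 and Hoxb7 had 1.24 and 1.04 CPM per kb. Hoxb3, Hoxb4, Hoxd4, Hoxc4, Hoxb6, Hoxa2, Hoxb9, Hoxa3, Hoxb2, Hoxb8, Hoxc6, Hoxc8, Hoxb5 and Hoxc5 had a mean of at least 1 CPM and medians of 0.332 to 0.954 CPM per kb. Group 12 was near zero in both tissues, with a summed median of 0 in tendon and 0.0694 CPM per kb in bone.

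**Figure D1:**
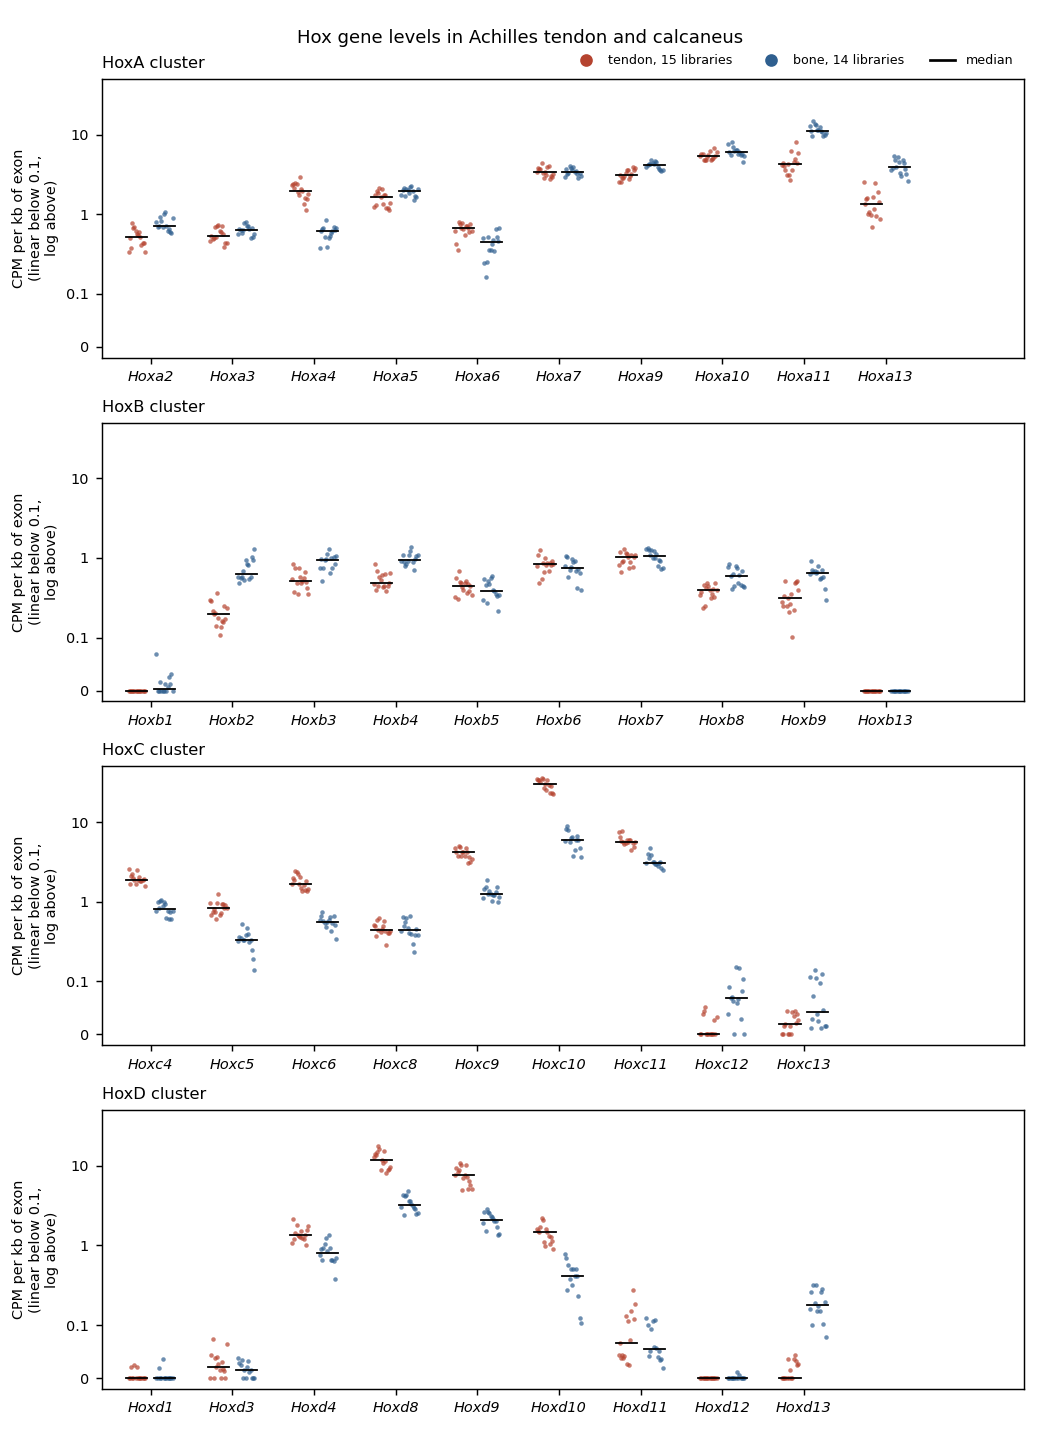
Level of Hox genes as CPM per kb of exon (linear below 0.1, logarithmic above), in 15 tendon libraries (red, left) and 14 bone libraries (blue, right), with the median as a black line and the genes of a cluster ordered by paralogue number. Hoxc10 stands highest in tendon at a median of 29.8 and Hoxa11 in bone at 11.2, and Hoxb13 is at 0 in both.

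The direct comparison of tendon with bone asked which of these differences exceeded the spread between libraries. Averaged over the 5 conditions, 27 of the 33 Hox genes tested passed an adjusted p of 0.05 with edgeR's quasi-likelihood test, 12 higher and 15 lower in tendon, while 86.3% of all 19845 genes tested passed. The share of Hox genes called, 81.8%, was near that of all genes. Of all genes 38.9% were higher and 47.4% lower. In HoxC 6 genes were higher in tendon and 1 lower of 8 tested, and in HoxD 4 were higher and 1 lower of 6. In HoxA 2 were higher, Hoxa4 and, with the scaling used here but not with library totals, Hoxa6, and 8 lower of 11, and in HoxB none was higher and 5 were lower of 8. Whether the clusters differ from each other was not tested. Separation of the tissues was common: naive tendon and naive bone libraries did not overlap for 24 of 33 Hox genes, 72.7% beside 74.2% of all genes. The share of all genes separate over all conditions was not computed.

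The genes higher in tendon were led by Hoxc10, a Hox10 gene of the lower back and hindlimb (chr15:102966796-102971893, plus strand). It had 42.8, 56.8 and 67.3 CPM (lowest, median, highest) in tendon libraries, against 6.88, 11.3 and 17.1 CPM in bone libraries. Every tendon library was above every bone library, and the log2 fold change was 2.31 ± 0.09 (SE, adjusted p = 1.24e-16, edgeR). Its neighbour Hoxc9 had 7.49, 10.1 and 12.0 CPM in tendon and 2.41, 3.01 and 4.54 CPM in bone, a log2 fold change of 1.63 ± 0.09. Hoxc6 had 3.29, 4.03 and 5.83 CPM in tendon and 0.812, 1.35 and 1.78 CPM in bone (1.67 ± 0.09). Both were separate between tissues in all libraries. Hoxc4 (1.27 ± 0.09) and Hoxc5 (1.37 ± 0.11) were separate too with TMM totals, whereas Hoxc11, at 0.86 ± 0.07, overlapped between tissues. Other genes on the same strand share 5.4% of the exon bases of Hoxc5 and 8.7% of those of Hoxc10, where reads cannot be assigned to 1 gene.

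The HoxD genes of middle numbers moved with HoxC. Hoxd8 (chr2:74704615-74707933) had 22.3, 32.3 and 48.8 CPM in tendon, against 6.64, 8.80 and 13.3 CPM in bone. Hoxd9 (chr2:74697727-74700208) had 10.65, 16.2 and 23.0 CPM in tendon, against 2.85, 4.42 and 6.12 CPM in bone. Hoxd10 had 1.63, 2.67 and 3.997 CPM in tendon, against 0.193, 0.757 and 1.43 CPM in bone. With TMM totals none of these 3 overlapped between tissues, with log2 fold changes of 1.85 ± 0.08, 1.87 ± 0.10 and 1.85 ± 0.14 (largest adjusted p = 1.38e-11). One HoxA gene stood with them, Hoxa4, at 1.80, 3.08 and 4.68 CPM in tendon and 0.595, 0.972 and 1.36 CPM in bone (1.73 ± 0.11). The tendon libraries also held muscle, with the 5 fibre markers at a median of 10.9% of counts, against 0.68% in bone. The part of muscle cells in the higher HoxC and HoxD levels of tendon was not tested.

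Of the genes lower in tendon, Hoxa11, the gene of the middle limb segment (chr6:52242106-52245810, minus strand), had 6.05, 9.63 and 18.2 CPM in tendon, against 21.9, 25.5 and 33.4 CPM in bone. Hoxb2 had 0.378, 0.689 and 1.26 CPM in tendon, against 1.67, 2.21 and 4.48 CPM in bone. No tendon library reached a bone library for either gene, with log2 fold changes of -1.38 ± 0.10 and -1.79 ± 0.12. The antisense RNA Hoxa11os shares 35% of the exon bases of Hoxa11 and was also lower in tendon, with a median of 6.19 CPM against 17.6 CPM in bone. Hoxb3os shares 27.3% of Hoxb2, and the strand setting of the counts is not given in the sources used here, so reads of each gene and its antisense partner cannot be told apart. The bone libraries also held marrow, with neutrophil genes at 0.176% to 0.940% of counts, against at most 0.000976% in tendon. The part of marrow cells in the higher HoxA and HoxB levels of bone was not tested.

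Hoxa13 and Hoxd13, the foot genes, were singled out after their values were seen. Hoxa13 had 1.71, 3.29 and 6.25 CPM in tendon, against 6.53, 9.63 and 13.3 CPM in bone, a log2 fold change of -1.53 ± 0.16. Hoxd13 had no count in 8 of 15 tendon libraries and at most 0.1101 CPM there, against 0.193, 0.449 and 0.792 CPM in bone. Neither gene overlapped between tissues. In the naive libraries, where all 3 tendon samples had counts of Hoxd13, it had 0.0819, 0.0625 and 0.0664 CPM in tendon and 0.252, 0.482 and 0.193 CPM in bone (-2.05 ± 0.62, adjusted p = 0.00575, edgeR).

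**Figure D2:**
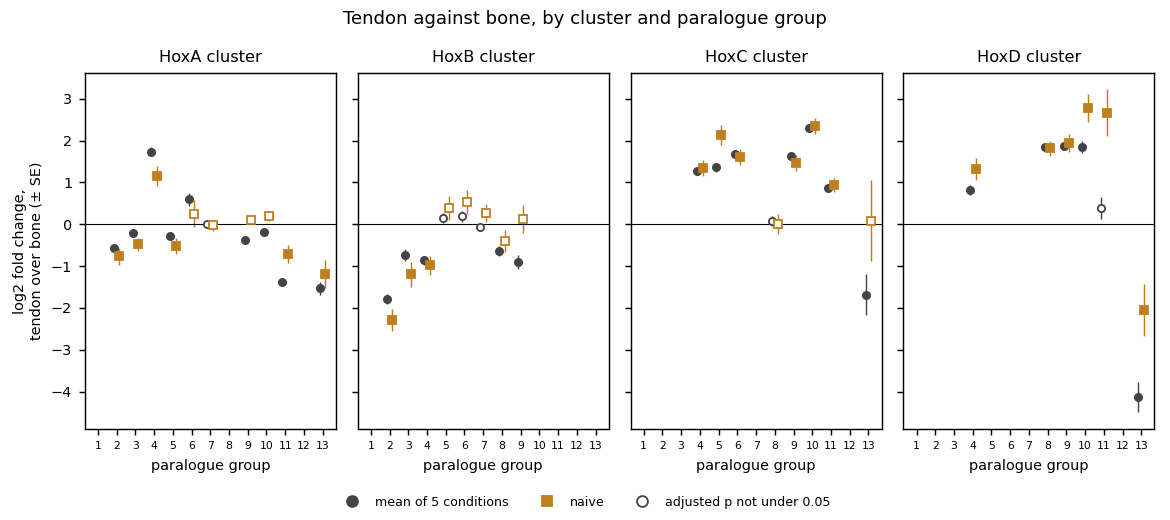
Log2 fold change of tendon over bone (± SE) for Hox genes tested, by cluster and paralogue group, averaged over the 5 conditions (circles) and in naive tissue (squares); open symbols have an adjusted p of 0.05 or more. HoxC and HoxD genes of groups 4 to 10 lie mostly above 0, and Hoxd13 is lowest at -4.14 in the average, which rests on tendon groups with few or no counts.

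In naive tissue, without any treatment, 22 of 33 genes passed, 12 higher and 10 lower in tendon, beside 68.4% of all genes (33.3% higher, 35% lower). In HoxC 6 of 8 were higher and none lower, and in HoxD 5 of 6 were higher and 1 lower. In HoxA 1 of 11 was higher and 6 were lower, and in HoxB 3 of 8 were lower. The smallest adjusted p belonged to Hoxc10 (2.35 ± 0.20), with Hoxd8 (1.81 ± 0.18), Hoxd9 (1.95 ± 0.21), Hoxc5 (2.13 ± 0.24) and Hoxd10 (2.78 ± 0.34) higher and Hoxb2 (-2.29 ± 0.26) lower. Hoxd11, a Hox11 gene, was higher in naive tendon, with 1.15, 0.500 and 0.764 CPM against 0.140, 0.148 and 0.0773 CPM in naive bone (2.67 ± 0.56, adjusted p = 0.000202, edgeR), although its averaged difference was 0.39 ± 0.26 (adjusted p = 0.169) and was -0.31 with library totals. Hoxa9 had 22.1, 20.2 and 20.9 CPM in naive tendon and 20.2, 19.5 and 19.7 CPM in naive bone, at 0.09 ± 0.08 (adjusted p = 0.317), and turned to -0.45 with library totals.

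These values depend on the scaling. The median log2 difference of all genes was -0.15 with TMM, edgeR's scaling factors, and -0.86 with plain library totals. With totals the averaged split was 10 higher and 20 lower, and the naive split 12 higher and 14 lower. Hoxa6 then changed sign, at -0.11 in place of 0.59, and Hoxd4 was no longer called (0.11 ± 0.13). Hoxc10 at 1.60, Hoxd9 at 1.15, Hoxd10 at 1.14, Hoxd8 at 1.13, Hoxa4 at 1.02, Hoxc6 at 0.96, Hoxc9 at 0.92, Hoxc5 at 0.66, Hoxc4 at 0.56 and Hoxc11 at 0.15 stayed higher in tendon and called. Which libraries overlapped was judged with TMM totals. With plain totals Hoxc4, Hoxc5, Hoxd10 and Hoxa4 overlapped between tissues. For Hoxd10, naive tendon replicate 3 had 49 counts of 33.92M, and stimulated day 12 bone replicate 1 had 36 of 19.26M.

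Muscle stimulation was the study's main contrast, and no Hox gene passed in any of its 4 comparisons, with edgeR or with DESeq2. In tendon at day 5, 0 of 31 were called beside 0.0585% of all genes, with 3 at an unadjusted p under 0.05. At day 12 in tendon 0 of 31 were called beside 0.345%, with 4 at an unadjusted p under 0.05. In bone 0 of 32 were called at day 5 beside 0% of all genes and 0 of 32 at day 12 beside 0.0371%, with 8 and 3 at an unadjusted p under 0.05. Of all genes, 8.28% and 11.2% in tendon at days 5 and 12 and 8.07% and 14.6% in bone had an unadjusted p under 0.05. The median log2 fold change over the Hox genes tested was 0.07 in tendon at day 5, -0.10 in tendon at day 12, 0.27 in bone at day 5 and -0.18 in bone at day 12, while that of all genes lay between -0.01 and 0.01.

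In tendon at day 5 the smallest p belonged to Hoxa9, with 18.5, 20.1 and 20.04 CPM in stimulated tendon, against 15.3, 16.6 and 17.7 CPM in unstimulated tendon. The samples did not overlap, as for 2 of 31 Hox genes and 12.6% of all genes there. The log2 fold change was 0.25 ± 0.09 (adjusted p = 0.476, edgeR). Hoxa10 had 0.21 ± 0.09, Hoxa4 0.49 ± 0.23 and Hoxc6 0.26 ± 0.16 (adjusted p = 0.549 to 0.734). At day 12 Hoxa2, a gene of the head end, had 0.601, 0.879 and 0.664 CPM in stimulated tendon and 1.38, 1.19 and 1.21 CPM in unstimulated tendon. It too was separate between groups, as were 9 of 31 Hox genes beside 14.8% of all genes. Its log2 fold change was -0.80 ± 0.23 with an adjusted p of 0.160 (edgeR). Hoxa10 had 0.22 ± 0.09 and Hoxa5 -0.47 ± 0.21 (adjusted p = 0.364 and 0.431).

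In bone at day 5, 19 of 32 Hox genes did not overlap between the 3 stimulated and 2 unstimulated libraries, beside 28.7% of all genes, and the 8 with an unadjusted p under 0.05 were all higher after stimulation. The smallest p were those of Hoxb4 (0.65 ± 0.18) and Hoxb2 (0.66 ± 0.19, adjusted p = 0.493 for both, edgeR). Hoxb2 had 3.32, 2.92 and 2.85 CPM in stimulated bone, against 1.91 and 2.04 CPM in unstimulated bone. Hoxa9 had 0.28 ± 0.08 and Hoxc8 0.91 ± 0.29, with adjusted p of 0.518 and 0.529. One of these 2 unstimulated libraries was the summed pair, which also held keratinocyte markers at 0.0196% of counts, against a bone median of 0.000563%. The part of either in these values was not tested.

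At day 12 in bone Hoxa11 had 29.1, 25.1 and 22.1 CPM in stimulated bone, against 33.4, 30.5 and 30.04 CPM in unstimulated bone. All stimulated samples were lower, at -0.34 ± 0.10 (adjusted p = 0.207, edgeR). Libraries did not overlap for 4 of 32 Hox genes there, beside 16.1% of all genes. Hoxd8 had -0.47 ± 0.18, Hoxd9 -0.43 ± 0.18 and Hoxa9 -0.16 ± 0.07 (adjusted p = 0.266 to 0.352). The effect of stimulation did not pass as different between tendon and bone for any of 33 Hox genes at day 5 (0% of all genes, 1 Hox gene at an unadjusted p under 0.05) or day 12 (0.222% of all genes, 4 at an unadjusted p under 0.05), by edgeR or DESeq2. Of all genes 6.29% and 10.9% had an unadjusted p under 0.05 in these edgeR tests. At day 5 the smallest p were of Hoxa4 at 0.79 ± 0.35, Hoxc8 at -0.76 ± 0.37, Hoxc13 at -2.55 ± 1.55 and Hoxa7 at -0.32 ± 0.19, and at day 12 of Hoxc6 at -0.67 ± 0.26, Hoxa10 at 0.37 ± 0.16, Hoxa2 at -0.65 ± 0.30 and Hoxb8 at -0.82 ± 0.39. These are log2 differences of the tendon effect minus the bone effect.

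**Figure D3:**
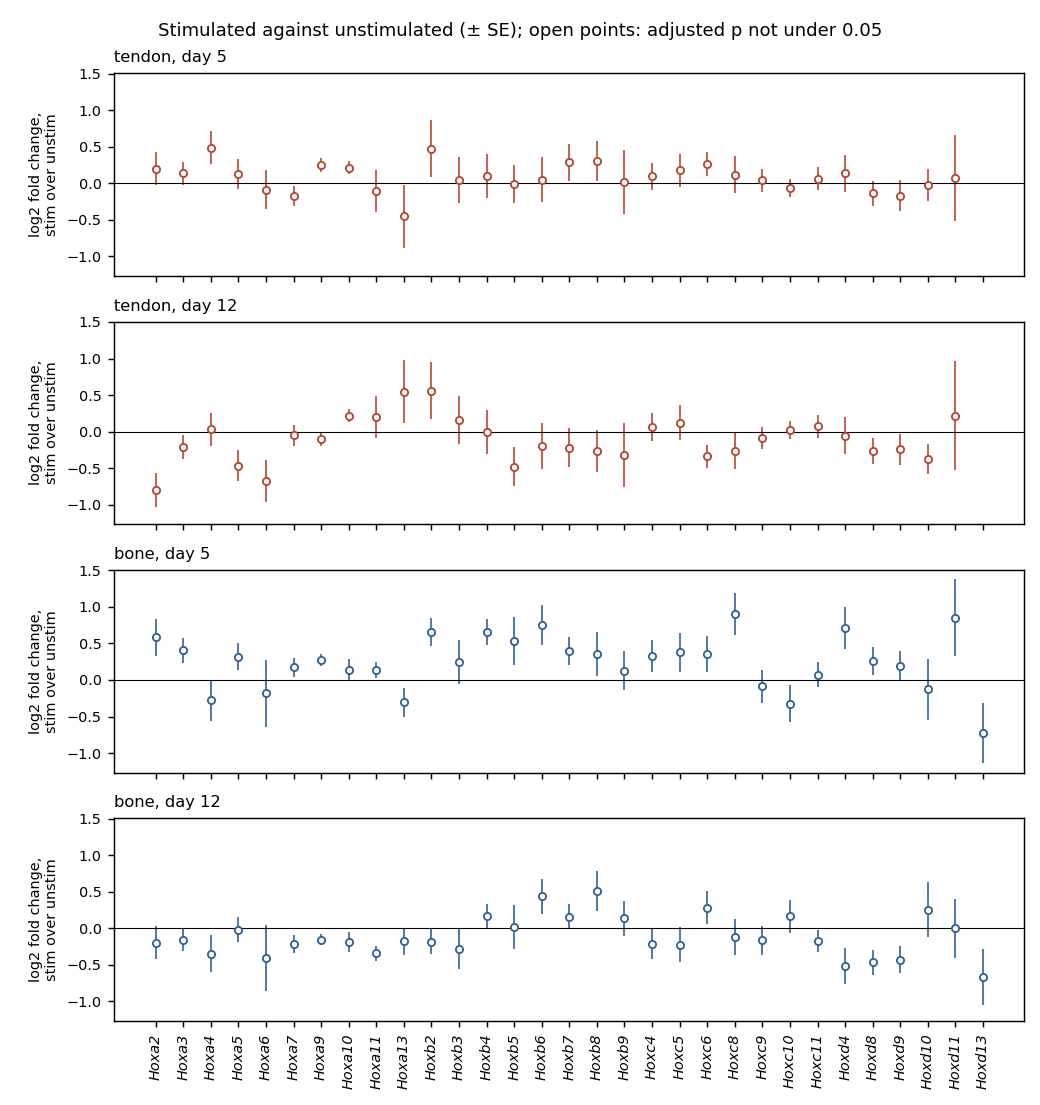
Log2 fold change of stimulated over unstimulated (± SE) for Hox genes tested in tendon and bone at days 5 and 12. All points are open because none had an adjusted p under 0.05; values ran from -0.80 (Hoxa2 in tendon at day 12) to 0.91 (Hoxc8 in bone at day 5).

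Against naive samples, which the stimulated and unstimulated comparisons of a tissue share, Hox genes were called mainly at day 12. At day 5 no gene of 31 passed in unstimulated tendon (0.0351% of all genes, and none by DESeq2). There 3 Hox genes had an unadjusted p under 0.05, beside 10.9% of all genes. In stimulated tendon Hoxa3 alone passed, 1 of 31 beside 2.29% of all genes (0.871% higher, 1.42% lower). It had 4.24, 4.34 and 3.72 CPM in stimulated tendon at day 5, against 2.32, 2.63 and 2.62 CPM in naive tendon. All treated samples were higher, a separation found in 30.4% of all genes there (0.70 ± 0.16, adjusted p = 0.0414, edgeR), but the call was lost with library totals (adjusted p = 0.0702) and without any 1 of tendon_naive replicates 1, 2 or 3 or of the stimulated day 5 tendon replicates 1 or 2. In bone at day 5 none of 32 passed with edgeR in either group, beside 0.435% of all genes unstimulated and 0.228% stimulated. In unstimulated bone 5 Hox genes had an unadjusted p under 0.05, beside 14.8% of all genes, and DESeq2 called 1. In stimulated bone 14 had an unadjusted p under 0.05, beside 16.3% of all genes. All 14 were higher than in naive bone, and DESeq2 called 3.

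At day 5 in unstimulated tendon the smallest p belonged to Hoxa9, at -0.35 ± 0.09 against naive tendon, Hoxa3 at 0.57 ± 0.16, Hoxa10 at -0.29 ± 0.09 and Hoxd11 at -1.16 ± 0.54 (adjusted p = 0.299 to 0.456, edgeR). Hoxb2 had 1.91 and 2.04 CPM in unstimulated bone at day 5, against 3.53, 3.30 and 4.48 CPM in naive bone. All naive samples were higher, and libraries did not overlap for 14 of 32 Hox genes there, beside 37% of all genes. The log2 fold change of Hoxb2 was -0.93 ± 0.19 (adjusted p = 0.0524, edgeR), and this was the call nearest to the threshold there. In stimulated bone at day 5 it was Hoxa9, at 0.37 ± 0.07 (adjusted p = 0.0602), before Hoxc5, Hoxd4 and Hoxd9 at 1.117, 0.91 and 0.63.

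At day 12 in tendon Hoxd8 and Hoxc10 rose and Hoxa9 and Hoxd11 fell, with and without stimulation. In unstimulated tendon 10 of 31 passed, 7 higher and 3 lower than in naive tendon, a share of 32.3% beside 18.8% of all genes (8.17% higher, 10.6% lower). In stimulated tendon 4 of 31 passed, 2 higher and 2 lower, 12.9% beside 24.4% of all genes (11.8% higher, 12.5% lower). Naive and day 12 libraries did not overlap for 18 of 31 Hox genes in unstimulated and 13 of 31 in stimulated tendon, beside 47.9% and 41.9% of all genes. Directions are relative to the median of all genes, which was -0.03 and -0.01 with TMM and -0.26 and -0.29 with library totals. With totals the split became 3 higher and 4 lower in unstimulated and 0 higher and 5 lower in stimulated tendon, and none of the genes called with TMM changed sign.

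Hoxd8 had 40.3, 48.8 and 44.2 CPM in unstimulated tendon at day 12, and 35.5, 38.1 and 37.0 CPM in stimulated tendon, against 24.0, 25.2 and 26.8 CPM in naive tendon. Both day 12 groups lay above all naive samples, with log2 fold changes of 0.79 ± 0.17 unstimulated (adjusted p = 0.0140) and 0.53 ± 0.17 stimulated (adjusted p = 0.0408, edgeR). Hoxc10 had 61.3, 67.3 and 66.2 CPM unstimulated and 66.8, 64.8 and 64.9 CPM stimulated, against 53.5, 44.0 and 42.8 CPM in naive tendon. It rose by 0.46 ± 0.12 unstimulated and 0.47 ± 0.12 stimulated. In unstimulated tendon Hoxd9 (0.77 ± 0.21), Hoxd10 (0.83 ± 0.21), Hoxc6 (0.57 ± 0.16), Hoxa2 (0.79 ± 0.23) and Hoxa5 (0.64 ± 0.21) also rose, all without overlap (largest adjusted p = 0.0481). With library totals in place of TMM, the calls of Hoxc10 (0.23), Hoxc6 (0.35), Hoxa2 (0.57) and Hoxa5 (0.40) in unstimulated tendon and those of Hoxc10 (0.20) and Hoxd8 (0.25) in stimulated tendon were lost (adjusted p = 0.0643 to 0.195), while Hoxd8 (0.55), Hoxd9 (0.54) and Hoxd10 (0.60) kept theirs in unstimulated tendon.

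Hoxa9 fell to 16.1, 15.8 and 16.8 CPM in unstimulated tendon at day 12 and 14.1, 17.2 and 14.1 CPM in stimulated tendon, against 22.1, 20.2 and 20.9 CPM in naive tendon. Every day 12 sample was below every naive sample, at -0.39 ± 0.09 unstimulated and -0.49 ± 0.09 stimulated (adjusted p = 0.0163 and 0.00438, edgeR). Hoxd11 had 0.184, 0.162 and 0.179 CPM unstimulated and 0.180, 0.278 and 0.156 CPM stimulated, against 1.15, 0.500 and 0.764 CPM in naive tendon (-2.19 ± 0.61 and -1.97 ± 0.60). These values rest on few counts: 4, 3 and 4 unstimulated and 3, 6 and 4 stimulated, against 42, 16 and 23 in naive tendon. Hoxa10 was lower in unstimulated tendon, with 15.7, 15.4 and 15.8 CPM against 21.9, 17.4 and 19.6 CPM in naive tendon (-0.35 ± 0.09, adjusted p = 0.0207).

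The cell makeup of the tendon samples moved at the same time. The tendon fibroblast markers, all 8 detected, summed to 0.202% to 0.558% of counts in unstimulated and 0.164% to 0.569% in stimulated tendon at day 12, against 1.03% to 2.54% in naive tendon. Muscle fibre genes made up 12.7% to 13.9% and 10.9% to 13.2%, against 6.77% to 9.92% in naive tendon. With a score of either list as a covariate, the mean of its genes' log2 levels and not their summed share, 0 Hox genes were called in both day 12 comparisons, and the score and the day cannot be told apart. Counts also rested on single samples. Without tendon_naive replicate 3 or unstimulated day 12 replicate 2 no Hox gene was called in the unstimulated comparison, and without naive replicate 2, or day 12 replicate 1 or 3, there were 4, 4 and 5. In the stimulated comparison 2 were called without naive replicate 1 or 2 or day 12 replicate 3, and 1 without naive replicate 3 or day 12 replicate 1.

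In bone at day 12 the Hox genes called were mostly higher than in naive bone. In unstimulated bone 12 of 32 passed, 11 higher and 1 lower, 37.5% beside 21.8% of all genes (10.1% higher, 11.7% lower). Libraries did not overlap for 16 of 32 genes, beside 39.8% of all genes. The called genes were 4 HoxD genes of 6 tested, 4 of 11 HoxA genes, 2 of 7 HoxC genes, and Hoxb7 and Hoxb2 of HoxB. In stimulated bone 9 of 32 did not overlap, beside 25.1% of all genes, and 3 of 32 passed, 2 higher and 1 lower, 9.38% beside 4.54% of all genes (2.08% higher, 2.46% lower).

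Hoxa11 had 33.4, 30.5 and 30.04 CPM in unstimulated bone at day 12, against 21.9, 22.4 and 23.8 CPM in naive bone. Hoxa9 had 23.8, 26.4 and 24.2 CPM in unstimulated bone, against 20.2, 19.5 and 19.7 CPM in naive bone. Both rose without overlap, by 0.51 ± 0.10 and 0.37 ± 0.07 (adjusted p = 0.00609 and 0.00579, edgeR), whereas the stimulated group had 0.17 ± 0.10 and 0.21 ± 0.07 (adjusted p = 0.358 and 0.1105) and did not pass. Hoxd8 had 11.5, 11.6 and 13.3 CPM in unstimulated bone at day 12, against 7.77, 6.89 and 6.92 CPM in naive bone (0.80 ± 0.18). Hoxd9 (0.89 ± 0.19), Hoxc5 (1.05 ± 0.25), Hoxd4 (0.96 ± 0.26), Hoxa10 (0.47 ± 0.14), Hoxa13 (0.59 ± 0.18) and Hoxb7 (0.54 ± 0.17) rose too, and Hoxc11 rose by 0.53 ± 0.15 with overlapping samples. Hoxd4 shares 52.3% of its exon bases with other genes on its strand, Hoxd3 among them.

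Hoxb2 was the one Hox gene called lower at day 12 in bone, in both groups. It had 1.98, 2.38 and 1.83 CPM in unstimulated bone and 2.02, 1.67 and 1.955 CPM in stimulated bone, against 3.53, 3.30 and 4.48 CPM in naive bone. No day 12 sample reached a naive one, at -0.82 ± 0.17 unstimulated and -1.005 ± 0.17 stimulated (adjusted p = 0.00599 and 0.0106, edgeR). Hoxd10 had 1.04, 0.687 and 0.917 CPM unstimulated and 1.43, 1.28 and 0.497 CPM stimulated, against 0.421, 0.222 and 0.193 CPM in naive bone, and rose in both (1.64 ± 0.43 and 1.89 ± 0.43). Hoxb7 rose in stimulated bone by 0.70 ± 0.17, with 1.98, 2.07 and 1.92 CPM against 1.40, 1.11 and 1.16 CPM in naive bone.

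Markers of marrow, bone and fibroblasts moved beside these. Neutrophil genes summed to 0.176% to 0.355% of counts in unstimulated and 0.288% to 0.633% in stimulated bone at day 12, against 0.411% to 0.940% in naive bone, and red cell genes to 0.370% to 0.809% and 0.653% to 2.01%, against 1.74% to 4.99%. The sum of blood progenitor markers was higher, at 0.03544% to 0.03997% unstimulated and 0.02581% to 0.0359% stimulated, against 0.02169% to 0.02557% in naive bone. The mean of these markers' log2 levels was 4.158 to 4.6 unstimulated and 4.328 to 4.367 stimulated, against 4.188 to 4.309 in naive bone. The part of blood progenitors in the Hox values was not tested. Osteoblast genes made up 3.10% to 3.55% and 2.48% to 3.17%, against 4.88% to 5.29% in naive bone. Col1a1 is counted both in this sum and in that of the fibroblast markers. The tendon fibroblast markers summed to 3.18% to 3.54% unstimulated and 2.57% to 3.34% stimulated, against 4.71% to 5.11% in naive bone. The mean of their log2 levels went the other way, at 8.03 to 8.46 unstimulated and 8.09 to 8.42 stimulated, against 7.40 to 7.87 in naive bone, and its part in the Hox values was not tested. With the neutrophil score as a covariate 0 Hox genes were called in unstimulated and 1 in stimulated bone, and with the osteoblast score 6 and 0. In unstimulated bone 6 were called without bone_naive replicate 2 and 7 without day 12 replicate 1. In stimulated bone 1 was called without naive replicate 2 or 3 or day 12 replicate 1, 0 without day 12 replicate 2 and 5 without day 12 replicate 3.

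**Figure D4:**
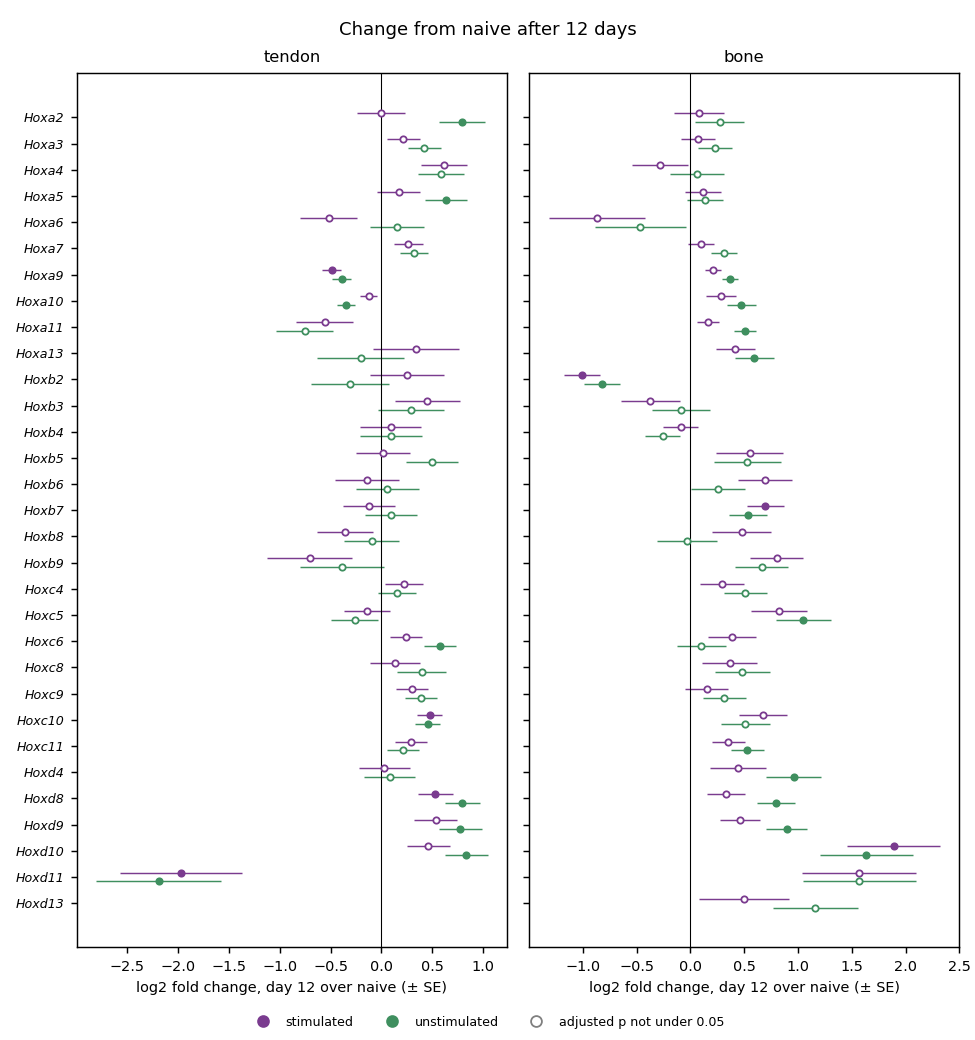
Log2 fold change of day 12 over naive (± SE) for Hox genes tested, in tendon (left) and bone (right), with stimulated samples in purple and unstimulated samples in green; filled points have an adjusted p under 0.05. Hoxa9 lies below 0 in tendon (-0.49 and -0.39) and above 0 in bone (0.21 and 0.37), and Hoxd11 lies below 0 in tendon and above 0 in bone.

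The change from naive at day 12 was compared between the tissues in a test added after the data were seen. Without stimulation 5 of 33 Hox genes differed, beside 16% of all genes (6.59% with the higher change in tendon, 9.39% with the lower), and all 5 had the lower change in tendon. With stimulation 3 of 33 differed, beside 9.42% of all genes (3.42% and 6%). The Hox shares, 15.2% and 9.09%, were near those of all genes. Hoxa9 had a tendon change minus bone change of -0.70 ± 0.11 unstimulated and -0.69 ± 0.11 stimulated (adjusted p = 0.000467 and 0.00128, edgeR), and Hoxd11 one of -3.70 ± 0.82 and -3.52 ± 0.82. Hoxa9 and Hoxd11 kept their sign and their call in both with library totals, which moved the median of all genes to -0.29 unstimulated and -0.35 stimulated. At day 5, 0 of 33 differed in either group with edgeR (0.0101% and 0.0756% of all genes), with 5 and 9 at an unadjusted p under 0.05 and 0 and 1 called by DESeq2. Of all genes 9.56% and 14.4% had an unadjusted p under 0.05 there.

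**Figure D5:**
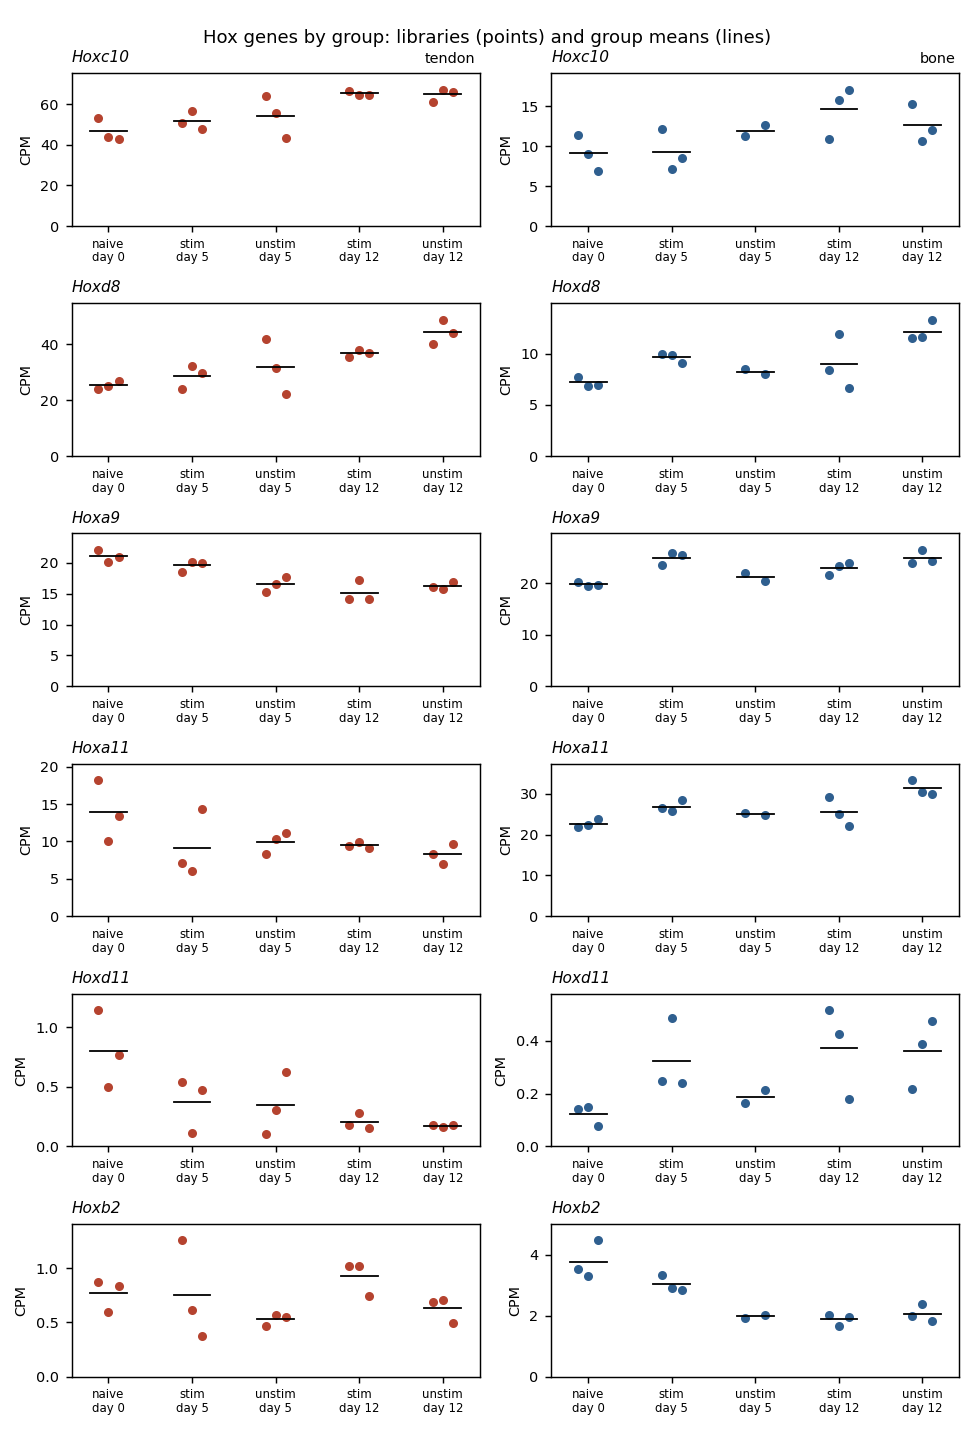
CPM of 6 Hox genes in each library (points) and as group means (lines), for naive, stimulated and unstimulated groups at days 5 and 12, in tendon (left) and bone (right); each axis starts at 0 and has its own scale. Hoxc10 in tendon lies between 42.8 and 67.3 and in bone between 6.88 and 17.1, and Hoxd11 in tendon is highest in the naive libraries.

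Genes that act with the Hox code were read from lists chosen with earlier results of these data known. Of the limb identity factors, the hindlimb gene Pitx1 had a median of 4.49 CPM in tendon (1.20 to 11.1) and 19.8 CPM in bone (13.97 to 28.1). The hindlimb gene Tbx4 had 7.69 CPM in tendon and 10.3 CPM in bone. The forelimb gene Tbx5 had 0.0839 CPM in tendon and 0.289 CPM in bone. Averaged over conditions and with TMM, 5 of 27 tested limb factors were higher in tendon and 20 lower, beside 38.9% and 47.4% of all genes, led by the bone-forming homeobox genes Dlx5 (-5.99 ± 0.19) and Dlx6 (-7.42 ± 0.25).

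At day 12 in tendon 9 of 24 limb factors were called lower and 1 higher in unstimulated samples than in naive ones, beside 10.6% and 8.17% of all genes. In stimulated samples 6 of 24 were lower and none higher, beside 12.5% and 11.8% of all genes. The mesenchymal gene Prrx1 averaged 65.7 ± 6.2 CPM unstimulated and 70.0 ± 17.2 CPM stimulated, against 119.5 ± 4.0 CPM in naive tendon (SD, n = 3 each; -0.88 ± 0.17 and -0.78 ± 0.17 on the log2 scale, edgeR), and Twist1 fell by 1.21 and 1.22 on the log2 scale. In unstimulated bone 8 of 26 rose and 1 fell, beside 10.1% and 11.7% of all genes. Among those that rose were Prrx1 at 149.5 ± 21.2 CPM against 94.4 ± 4.3 CPM in naive bone and Tbx4 at 12.98 ± 0.50 CPM against 6.45 ± 1.53 CPM. In stimulated bone 2 rose and 1 fell, beside 2.08% and 2.46% of all genes. Between stimulated and unstimulated tendon at day 12, 1 of 24 limb factors passed, beside 0.345% of all genes. This was Irx5, with 0.117 ± 0.055 CPM in stimulated and 2.57 ± 1.19 CPM in unstimulated tendon (-4.46 ± 0.67, adjusted p = 0.0162, edgeR). Over all 15 tendon libraries Irx5 had a median of 0.306 CPM (0.0761 to 3.84).

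Of the Hox cofactors, 1 of 8 tested rose in unstimulated tendon at day 12, beside 8.17% of all genes. This was Pknox2, with 75.8 ± 4.4 CPM against 54.6 ± 5.5 CPM in naive tendon. In stimulated tendon 1 of 8 fell, beside 12.5% of all genes. In unstimulated bone Meis2 rose, and Pknox1 and Pbx2 fell, of 9 tested, beside 10.1% of all genes higher and 11.7% lower. Of the list of noncoding RNAs and Evx genes of the clusters, 3 of 9 tested rose in unstimulated bone at day 12, beside 10.1% of all genes. In stimulated bone 1 of 9 rose, beside 2.08%. Hoxa11os rose in both groups, with 20.9 ± 2.7 CPM unstimulated and 19.2 ± 2.1 CPM stimulated against 12.5 ± 0.3 CPM in naive bone. In tendon at day 12, 1 of 8 of this list rose in each group, beside 8.17% of all genes unstimulated and 11.8% stimulated. Hoxd3os1 had 4.05 ± 0.68 CPM unstimulated and 3.82 ± 0.48 CPM stimulated there, against 1.83 ± 0.43 CPM in naive tendon. Of the 24 Polycomb and trithorax genes, which hold Hox clusters silent or active, 1 rose and 6 fell in unstimulated bone at day 12, beside 10.1% and 11.7% of all genes. The methyltransferase gene Ezh2, which dividing cells express highly, had 16.8 ± 1.8 CPM there against 39.1 ± 6.7 CPM in naive bone (-1.18 ± 0.16, adjusted p = 0.00140, edgeR). In stimulated bone 0 of the 24 rose and 3 fell, beside 2.08% and 2.46% of all genes. In unstimulated tendon 0 rose and 2 fell, beside 8.17% and 10.6%. In stimulated tendon 1 rose and 3 fell, beside 11.8% and 12.5%. None of the 4 lists held a called gene in the other comparisons of stimulated with unstimulated samples.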

How the data were processed

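RNA was extracted with a PureLink kit and poly-A libraries were made from each of the 30 samples, per the labels' protocols. Per the submitters' processing notes the tools included cutadapt 2.3, FastQC 0.11.8, STAR 2.7.8a, RSEM 1.3.3 and MultiQC 1.7, with GRCm38 as the build; their order, the annotation release and any strand option are not stated there. RSEM expected counts, that is estimated counts per gene, are the unit the authors deposited; reads shared by similar or overlapping genes are divided between them by an estimate. All deposited values were whole, so rounding changed none.

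The members and gene lists were chosen with earlier results of these data known. Tests ran in edgeR 4.0.16 (R 4.3.3) with TMM scaling, filterByExpr (minimum count 10, minimum total 15), robust quasi-likelihood fits that took in every library of 1 tissue, or of both, and Benjamini-Hochberg adjustment over all genes tested with a threshold of 0.05. The filter kept 31 Hox genes in tendon, 32 in bone and 33 in both tissues together; Hoxb1, Hoxb13, Hoxc12, Hoxd1, Hoxd3 and Hoxd12 were tested in none, Hoxc13 only in the fit of both, and Hoxd13 not within tendon. In each comparison up to 12 Hox genes with the smallest adjusted p are named, and up to 4 where none passed, with up to 4 members of each list of other genes. Values of 1 Hox gene and of 1 cofactor gene are not reported or plotted here; the counts include them. Fold changes carry their SE after ±, the fold change over the square root of the F statistic. CPM used TMM-scaled totals, and CPM per kb the union of exons in GENCODE M21, matched by ID for 55154 genes. Limits for genes with no count cover counting error only.

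The 2 near-identical bone samples were summed. Groups came from the labels, and no column was left out. The edgeR steps were tested on simulated data. Alternatives were DESeq2 1.42.0, other scalings, no filter, replicate blocks, covariates from marker scores, and omission of single libraries. Library totals, the muscle and neutrophil scores and the comparison of changes between tissues were added after the data were seen.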

Additional observations from a re-analysis of the deposited data

Results flagged for a closer look

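The changes from naive at day 12 differed between tendon and bone for 8 results over 6 Hox genes, by a test of the difference itself (edgeR, tendon change minus bone change on the log2 scale). Without stimulation these were Hoxa9 at -0.70 ± 0.11, Hoxa10 at -0.76 ± 0.16, Hoxd11 at -3.70 ± 0.82, Hoxa11 at -1.20 ± 0.31 and Hoxc5 at -1.25 ± 0.34, with adjusted p of 0.000467 to 0.0139. With stimulation they were Hoxa9 at -0.69 ± 0.11 (adjusted p = 0.00128), Hoxd11 at -3.52 ± 0.82 (0.00981) and Hoxb2 at 1.26 ± 0.38 (0.0383). Hoxa9 and Hoxa10 fell in unstimulated tendon and rose in unstimulated bone. Hoxa11 rose in unstimulated bone while its tendon change, -0.76 ± 0.28, did not pass (adjusted p = 0.0761). The call for Hoxb2 was lost with library totals (0.95, adjusted p = 0.0808), with no count filter (1.24, adjusted p = 0.0789) and without any 1 of 8 libraries, while the other 7 held their call under every alternative run. Marker sums of fibroblasts, muscle, marrow and osteoblasts moved with the day in these tissues, and their part in the difference was not tested.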

How the results depend on the processing

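Alternatives were followed for 98 results, those of up to 12 Hox genes with the smallest adjusted p per comparison, or up to 4 where none passed. None of these 98 changed sign under any alternative, but other Hox values given above did. With library totals the balance of higher and lower calls turned to 3 and 4 in unstimulated tendon at day 12 (7 and 3 with TMM) and to 12 and 14 in naive tissue (12 and 10); Hoxa6, Hoxd11 and Hoxa9 values that changed sign with library totals had an adjusted p over 0.05 under at least 1 of the scalings and stand with the tissue comparison. The stimulation comparisons and their tissue differences kept 0 Hox genes called throughout, also without each library (0 to 0), and the tissue comparison kept 20 to 22 (naive) and 26 to 27 (averaged). Without each library, counts against naive ran from 0 to 0 in tendon unstimulated day 5, 0 to 2 in stimulated day 5, 0 to 7 in unstimulated day 12 and 1 to 3 in stimulated day 12; in bone from 0 to 1, 0 to 0, 6 to 13 and 0 to 5. In stimulated tendon at day 5 the count of 1 became 0 with library totals, no count filter, the tendon fibroblast score, or only the libraries compared. In tendon at day 12 the counts of 10 and 4 became 0 and 0 with the fibroblast score and 0 and 0 with the muscle score. In bone at day 5 the 0 in unstimulated became 1 and the 0 in stimulated became 3 with DESeq2, and both became 1 with the near-identical pair kept apart. In unstimulated bone at day 12 the 12 became 6 with the osteoblast score, 0 with the neutrophil score and 7 with only the libraries compared. In stimulated bone the 3 became 5 with DESeq2, 0 with the osteoblast score, 1 with the neutrophil score and 0 with only the libraries compared. The cause was not tested. Of 1703 single-gene values over these results, 1518 kept their side of the threshold, 176 lost a call and 9 gained one.

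Replicate numbers gave no clear pairing of the samples: in none of 13 comparisons did all 3 same-numbered pairs correlate above 0.1. Single pairs did, up to 0.69 between stimulated day 5 and naive bone. The correlations are of deviations from means of 3 samples, which cannot exclude a pairing. With the replicate block (and the bone pair kept apart) the count was 1 in unstimulated and 1 in stimulated bone at day 5, and 11 and 13 in unstimulated tendon and bone at day 12. Depth limits Hoxb13, Hoxd12, Hoxd1 and Hoxc12, whose counts were at or near 0. Hoxb1, Hoxd3, Hoxc13 and Hoxd13 also had low counts in tendon. Hoxd11 had 3 to 6 counts in each day 12 tendon library and 5, 4 and 2 in naive bone, so its large fold changes are uncertain in size.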
